A study of Chlamydomonas reinhardtii with 24 samples.

Results

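Transcripts of the UV-B receptor mutant uvr8 were compared with those of wild type (WT) of the unicellular green alga Chlamydomonas reinhardtii in the absence of UV-B. The comparison was taken by its 2 labelled groups, uvr8 without UV-B (3 libraries) and WT without UV-B (3 libraries), which are 6 of the 24 libraries of the series. The uvr8 mutant is 1 strain of the Chlamydomonas insertion library in the background of CC5325, and WT is CC5325 itself. With 1 strain and no other uvr8 allele among the libraries used here, the UVR8 lesion and any other difference between this strain and CC5325 cannot be told apart, and the labels do not describe the lesion. Both groups grew in acetate medium in continuous light, spent at least 1 h in minimal medium, and then stood in dim white light (20 µmol photons per m2 per s) behind a 360 nm cut-on filter that kept UV-B out. Other libraries served for comparison. They were uvr8 and WT given 0.2 mW per square centimetre of UV-B for 1 h behind a 311 nm filter, and the mutants co and hy5, also 1 insertion strain each in CC5325, without UV-B.

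UVR8 is the protein by which plants and green algae sense UV-B. In UV-B its dimer separates into monomers, which bind the ubiquitin ligase partner COP1 and thereby protect transcription factors such as HY5 from degradation. In Chlamydomonas this route, which also needs the CONSTANS-like factor CO, switches on genes of photoprotection, among them LHCSR1, PSBS and LHL4. Without UV-B the receptor is a dimer, so the comparison asks which transcripts differ between the strains before the receptor is engaged.

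The 6 libraries held 23437937 to 25038787 counts. Levels are CPM (counts scaled to a common library size, with TMM), given per library in the order of the replicate numbers, and are compared between libraries of the same gene only. Differences are log2 fold changes of uvr8 over WT with their SE, from edgeR's quasi-likelihood test over all 24 libraries. These are bulk samples, in which fewer cells that express a gene and less of its RNA per cell cannot be told apart. A gene was called at a Benjamini-Hochberg adjusted p under 0.05 over all 13613 genes tested. Libraries of the same group differed by far more than counting noise (37.4 to 128 chi-square units per degree of freedom), and each was treated as a sample of its own. Separate cultures are not stated in the labels, and p-values therefore cover only the spread between these samples, which may be technical. Genes of the antenna, checked as marks of green cells, were abundant in all 6 libraries, with summed levels of 23750 to 28670 CPM in uvr8 and 22790 to 23605 CPM in WT for the tested genes of the main antenna (LHCII).

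The strains differed without UV-B in 726 genes (5.33% of those tested). Of these, 455 genes (3.34%) were higher in uvr8 and 271 (1.99%) were lower. The rises were also the larger changes. The median log2 fold change was 1.79 among genes that rose and -1.05 among genes that fell, and the median over all genes tested was -0.02. A change of at least 2-fold was seen in 374 of the 455 rises and 145 of the 271 falls (2.75% and 1.07% of genes tested), and one of at least 8-fold in 116 and 15. The libraries of the strains did not overlap for 708 of the 726 genes (5.20% of genes tested), and for 3354 of all genes tested (24.6%). Because libraries of the same number deviated together, the fit with the replicate number as a block is given too. It called 2173 genes (16.0%), 1252 higher (9.20%) and 921 lower (6.77%), among them all 726. The count was 380 without uvr8 library 2, 436 without uvr8 library 3, 437 without WT library 1 and 449 without WT library 3, and 363 in a fit of the 6 libraries alone. Leaving out uvr8 and WT library 2 together gave 354 calls, and leaving out both libraries 3 gave 244.

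**Figure D1:**
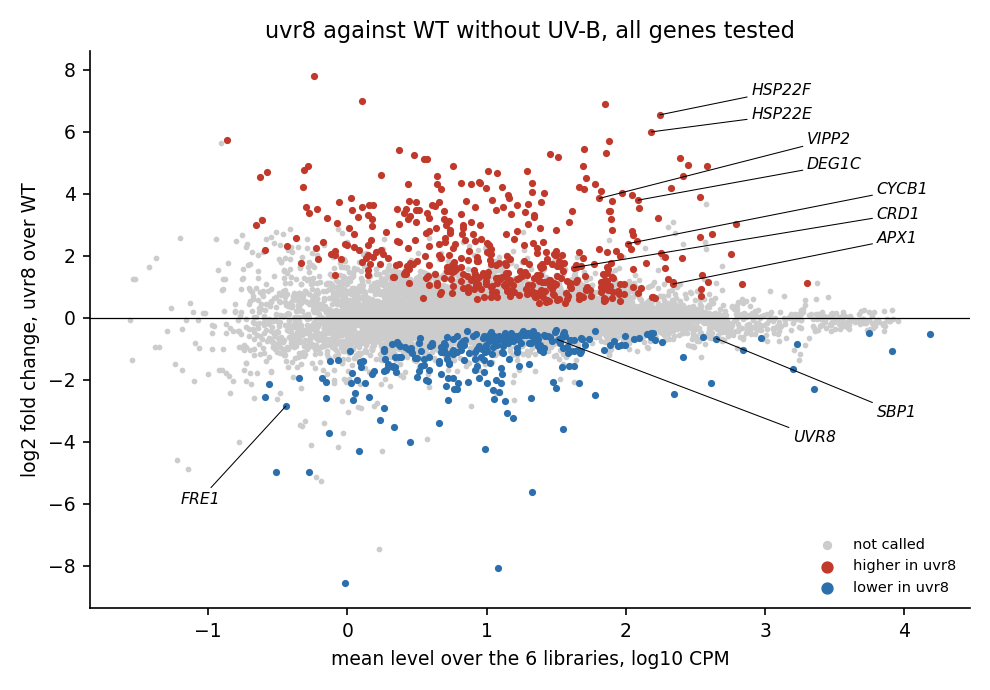
Each point is 1 of the 13613 genes tested, with the mean level over the 6 libraries (log10 CPM) on the horizontal axis and the log2 fold change of uvr8 over WT without UV-B on the vertical axis. Red points (455) were called higher and blue points (271) lower in uvr8, and the called genes of the lists are named, except NDA2 (0.76). HSP22E and HSP22F lie among the largest rises, at 6.0 and 6.54.

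The UVR8 transcript was lower in its own mutant but was not lost. UVR8 (Cre05.g230600) stood at 25.5, 23.6 and 24.6 CPM in uvr8, against 48.7, 31.2 and 40.2 CPM in WT. All 3 uvr8 libraries lay below all 3 WT libraries and close together. The difference was -0.70 (SE 0.18, adjusted p = 0.0205, edgeR). Levels in co and hy5 averaged 36.8 ± 2.73 and 37.1 ± 2.54 CPM (SD, n = 3 each), and uvr8 differed from their mean by -0.59 (SE 0.16, adjusted p = 0.0240). The call against WT depended on single libraries. It was lost without uvr8 library 2 or 3 (adjusted p = 0.0928 and 0.0739), without WT library 1 or 3 (0.144 and 0.0648), without both libraries of number 1 or of number 3 (0.255 and 0.173), and in the fit of the 6 libraries alone (0.127). With the replicate block, adjusted p was 0.000314. With UV-B, UVR8 stood at 30.8, 21.5 and 25.0 CPM in uvr8, against 35.2, 26.3 and 29.6 CPM in WT. These groups overlapped, and the difference of -0.24 (SE 0.18) missed the threshold (adjusted p = 0.377, and 0.0927 with the block). A transcript that is only reduced checks the label less closely than an absent one would. In the gene order of RefSeq assembly v5.5, the 10 measured genes nearest to UVR8 held 0 called genes, against 5.33% of all genes tested. Their log2 fold changes ran from -1.03 to 0.90, with a smallest adjusted p of 0.247.

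Among the signalling partners, no other gene passed the test. HY5 (Cre06.g310500), the bZIP factor, stood at 5.76, 2.00 and 2.04 CPM in uvr8, against 11.3, 7.49 and 6.39 CPM in WT. The groups did not overlap, and uvr8 library 1 lay closest to WT. Its log2 fold change of -1.36 (SE 0.42) missed the threshold (adjusted p = 0.0670), and passed with the replicate block (0.0184), with DESeq2 (0.0264), without uvr8 library 1 (0.00658) and without both libraries of number 1 (0.0318). COP1 (Cre02.g085050), the ligase partner of UVR8, stood at 9.06, 12.8 and 6.85 CPM in uvr8 and 9.04, 12.8 and 10.01 CPM in WT, which is a difference of -0.15 (SE 0.21, adjusted p = 0.767). SPA1 (Cre13.g602700), which acts with COP1, had -0.23 (SE 0.18, adjusted p = 0.554), and CO (Cre06.g278159) had -0.10 (SE 0.17, adjusted p = 0.803). The signs of COP1 and CO turned in single leave-one-out fits.

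The UV-B target genes were low or variable in both strains, and 0 of the 6 examined were called, against 5.33% of all genes tested. They are the 5 genes of qE, the rapid release of absorbed light as heat, and LHL4. All 6 log2 fold changes were below 0, from -2.08 to -0.69. LHCSR1 (Cre08.g365900), a light-harvesting-like protein that quenches excess light, stood at 6.20, 36.6 and 6.07 CPM in uvr8, against 8.01, 168 and 31.6 CPM in WT. Library 2 was the highest of each strain, and the groups overlapped. LHL4 (Cre17.g740950), which protects photosystem II and is named in the title of the series, stood at 2.77, 10.8 and 3.86 CPM in uvr8, against 3.98, 35.6 and 7.99 CPM in WT. Here too library 2 was the highest of each strain. The differences were -2.08 (SE 1.01, adjusted p = 0.271) for LHCSR1 and -1.44 (SE 0.81, adjusted p = 0.361) for LHL4. PSBS1 and PSBS2, relatives of the quenching protein of plants, held 28 and 30 counts in all over the uvr8 libraries and 60 and 114 over the WT libraries, of which WT library 2 held 44 and 93. Without WT library 2 the difference was 0.12 for PSBS1, -0.18 for PSBS2 and -0.28 for LHCSR1. For LHL4, WT library 2 held 832 of the 1103 WT counts. Over the 9 leave-one-out fits the LHL4 difference ran from -2.26 to -0.04. LHCSR3A and LHCSR3B are nearly the same in sequence, and their reads may have been split. They were at 101 to 368 and 104 to 339 CPM in uvr8, against 203 to 574 and 215 to 629 CPM in WT. Only LHCSR3B passed in the fit with the replicate block (adjusted p = 0.302 without it and 0.0474 with it). The mutant co, set against the same WT libraries in the same fit, was called lower for LHCSR1 (-5.77, SE 1.22, adjusted p = 0.00912) and PSBS2 (-3.48, SE 0.88, adjusted p = 0.0325), among 137 genes (1.01%) called lower in co. The mutant hy5 was called for neither gene in that fit (0.35, SE 0.97, adjusted p = 0.891 for LHCSR1, and -0.65, SE 0.69, adjusted p = 0.674 for PSBS2). The comparisons of co and hy5 share the WT libraries with that of uvr8. Neither was fitted without WT library 2.

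**Figure D2:**
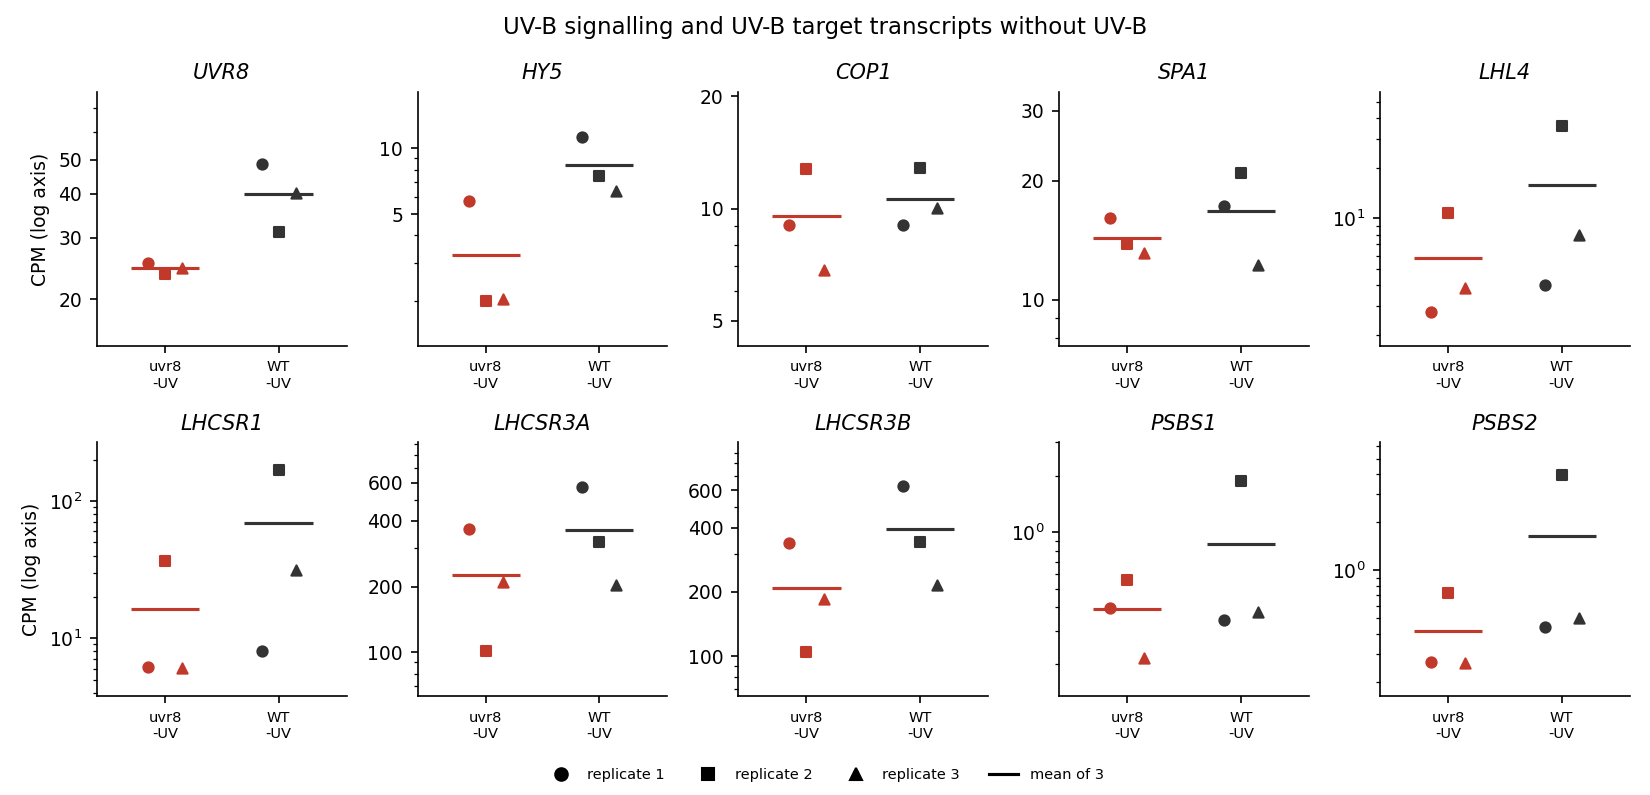
Levels in CPM (log axes) of UV-B signalling and UV-B target transcripts in the libraries without UV-B, with uvr8 left of WT in each panel, a symbol per replicate number and a bar for the mean of 3. UVR8 and HY5 do not overlap between the strains, while LHCSR1, LHL4, PSBS1 and PSBS2 overlap and are highest in library 2 of WT.

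The plastid small heat shock proteins and their companions were the named genes that rose most in uvr8. Of 11 tested genes in a list of chaperones and plastid stress genes, 4 were called higher and 0 lower, against 3.34% and 1.99% of all genes. The gene lists, this one included, were chosen with earlier results of these data known, so such shares do not test a list. The median log2 fold change of the list was 0.87, and 10 of the 11 lay above 0. HSP22E (Cre14.g617450), a small heat shock protein of the chloroplast, stood at 60.9, 558 and 282 CPM in uvr8, against 3.1, 6.89 and 4.08 CPM in WT. HSP22F (Cre14.g617400), its close copy, stood at 61.2, 669 and 310 CPM in uvr8, against 2.80, 5.69 and 2.61 CPM in WT. Every uvr8 library lay far above every WT library for both genes, and library 2 was the highest within each strain. The differences were 6.0 (SE 0.99, adjusted p = 0.000715) for HSP22E and 6.54 (SE 1.13, adjusted p = 0.00107) for HSP22F. The pair are neighbours in the gene order of RefSeq v5.5 and alike in sequence, so reads may have been shared or split between them.

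DEG1C (Cre12.g498500), a protease of the chloroplast stroma, stood at 114, 330 and 241 CPM in uvr8, against 9.88, 27.1 and 12.4 CPM in WT. VIPP2 (Cre11.g468050), a stress-induced relative of the thylakoid membrane protein VIPP1, stood at 18.7, 245 and 99.0 CPM in uvr8, against 4.08, 16.1 and 4.92 CPM in WT. The strains did not overlap for either gene, although uvr8 library 1 and WT library 2 came close to each other for VIPP2. The differences were 3.79 (SE 0.68, adjusted p = 0.00158) for DEG1C and 3.85 (SE 0.84, adjusted p = 0.00783) for VIPP2. The calls of HSP22E, HSP22F and DEG1C held in all 9 leave-one-out fits (largest adjusted p = 0.0191, 0.0257 and 0.0399). That of VIPP2 was lost without uvr8 library 2 (adjusted p = 0.0655), without WT library 1 or 3 (0.0528 and 0.0549), without both libraries of number 3 (0.0940) and in the fit of the 6 libraries alone (0.101).

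The remaining chaperones of the list differed less. CLPB3, a disaggregase of the chloroplast, stood at 85.9, 206 and 126 CPM in uvr8, against 91.2, 58.2 and 75.5 CPM in WT. The groups overlapped through uvr8 library 1, and the difference of 0.90 (SE 0.27) missed the threshold (adjusted p = 0.0549), and passed with the replicate block (0.0217). VIPP1 had 0.86 (SE 0.32, adjusted p = 0.135), the chloroplast HSP70B 0.61 (SE 0.27, adjusted p = 0.237) and the chloroplast HSP90C 0.57 (SE 0.32, adjusted p = 0.356). The cytosolic HSP70A had 0.87 (SE 0.51, adjusted p = 0.383) and HSP90A 0.71 (SE 0.42, adjusted p = 0.386). BIP1, the HSP70 of the endoplasmic reticulum, was the member below 0, at -0.10 (SE 0.30, adjusted p = 0.902). In a further list of 9 plastid chaperonins and co-chaperones, chosen after values had been seen, 0 were called, with a median of 0.17. It includes MARS1, a kinase needed for the chloroplast unfolded protein response, at 64.4, 140 and 95.9 CPM in uvr8, against 69.8, 73.0 and 55.4 CPM in WT, which is a difference of 0.60 (SE 0.29, adjusted p = 0.266).

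**Figure D3:**
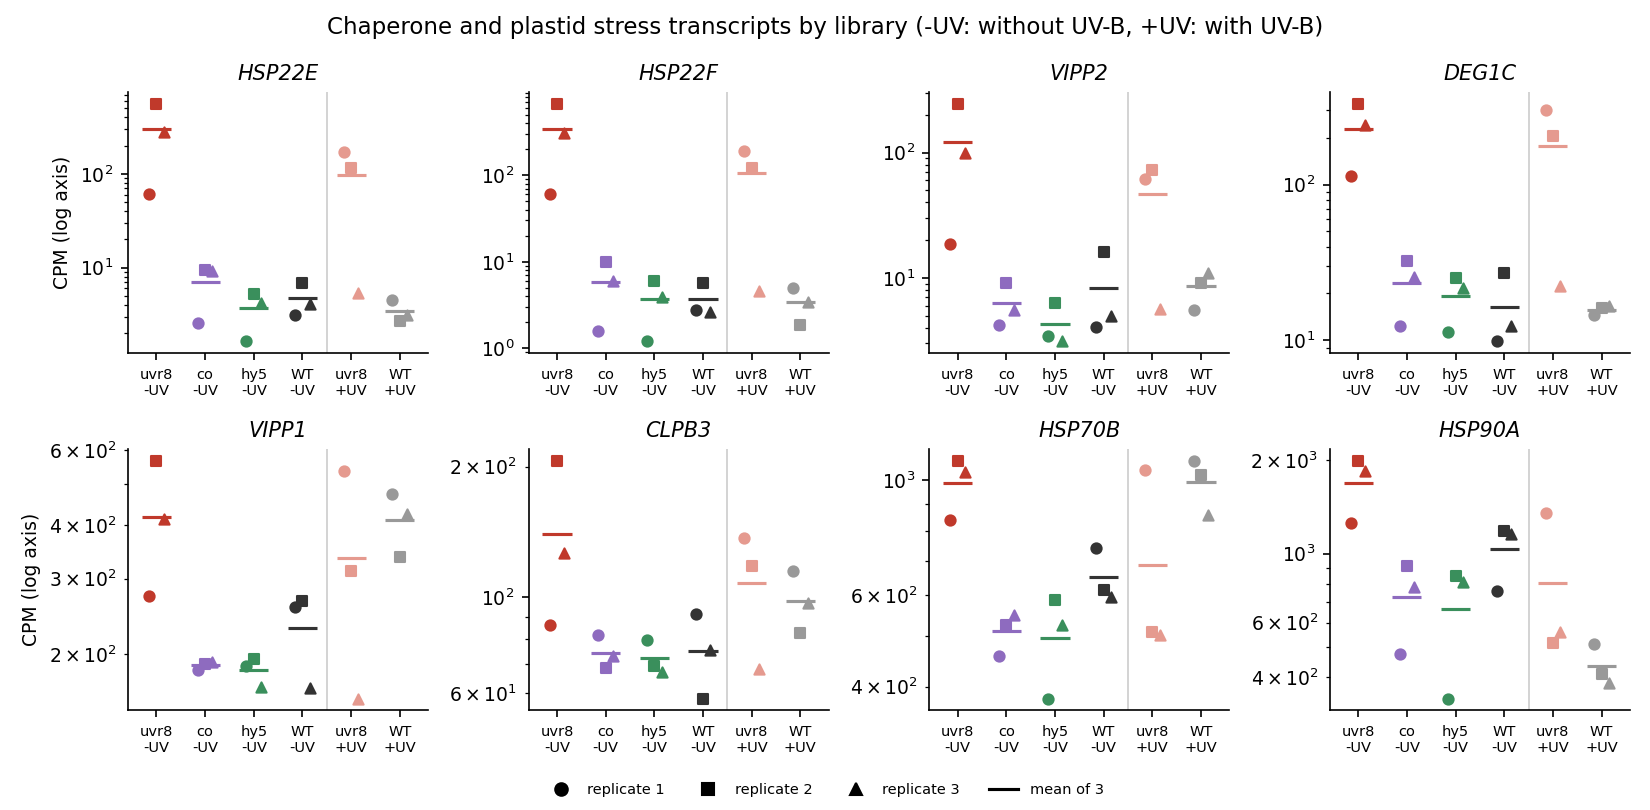
Levels in CPM (log axes) of 8 genes of the chaperone list in each library of uvr8, co, hy5 and WT without UV-B (left of the grey line) and of uvr8 and WT with UV-B (right of it), with a symbol per replicate number and a bar for the mean of 3. For HSP22E, HSP22F, VIPP2 and DEG1C all uvr8 libraries without UV-B stand above those of co, hy5 and WT, and with UV-B library 3 of uvr8 stands near WT.

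The same 4 genes also stood apart from the other insertion strains. HSP22E was at 2.56, 9.46 and 9.08 CPM in co and at 1.64, 5.23 and 4.18 CPM in hy5. The uvr8 level exceeded the mean of co and hy5 by 5.88 (SE 0.73, adjusted p = 5.71e-05) for HSP22E, 6.21 (SE 0.82, adjusted p = 9.59e-05) for HSP22F, 3.422 (SE 0.51, adjusted p = 0.000387) for DEG1C and 4.53 (SE 0.66, adjusted p = 0.000262) for VIPP2. Over all genes this comparison called 1047 (7.69%), 697 higher (5.12%) and 350 lower (2.57%) in uvr8. In the block fit it called 2683 (19.7%), and 271 were left without uvr8 library 2 and 474 without uvr8 library 3. It uses the same uvr8 libraries as the comparison with WT. CLPB3, VIPP1, HSP70B and HSP90A, which did not pass against WT, passed here at 0.93, 1.17, 0.97 and 1.29 (adjusted p = 0.0137, 0.00986, 0.0124 and 0.0276).

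Under UV-B, where other libraries of the same strains were measured, the 4 genes were again higher in uvr8, but not in every library. HSP22E stood at 171, 114 and 5.36 CPM in uvr8 with UV-B, against 4.55, 2.67 and 3.09 CPM in WT with UV-B. DEG1C stood at 301, 205 and 22.4 CPM in uvr8, against 14.6, 16.1 and 16.6 CPM in WT. For both genes uvr8 library 3 was far below the other 2 uvr8 libraries and just above the WT libraries, and for HSP22F (4.57 CPM) and VIPP2 (5.69 CPM) it lay within the WT range. The log2 fold changes were 4.82 (SE 0.95, adjusted p = 0.000942) for HSP22E, 4.96 (SE 1.06, adjusted p = 0.00190) for HSP22F, 3.48 (SE 0.67, adjusted p = 0.000757) for DEG1C and 2.44 (SE 0.80, adjusted p = 0.0320) for VIPP2. Without uvr8 library 3 with UV-B they were 5.39, 5.53, 4.02 and 2.98. The VIPP2 call was lost without uvr8 library 1 or 2 with UV-B (adjusted p = 0.0748 and 0.131) and without WT library 1, 2 or 3 with UV-B (0.111, 0.0714 and 0.0609).

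Outside the chaperones, 4 genes of the lists were called higher. Single calls in a list stand beside 3.34% of all genes called higher. APX1 (Cre02.g087700), an ascorbate peroxidase that removes hydrogen peroxide, stood at 262, 321 and 306 CPM in uvr8, against 125, 152 and 142 CPM in WT. The strains were clearly separate, by 1.09 (SE 0.19, adjusted p = 0.00146), and the call held in all 9 leave-one-out fits (largest adjusted p = 0.0324). It also exceeded the mean of co and hy5, by 1.00 (SE 0.16, adjusted p = 0.000705), and was higher in uvr8 under UV-B, by 1.39 (SE 0.19, adjusted p = 2.20e-05). APX1 was the 1 gene called of 12 tested for reactive oxygen, whose median was 0.08. In that list MSD3, a manganese superoxide dismutase, had -1.69 (SE 0.59, adjusted p = 0.109), and passed the threshold in the block fit (0.0178) and with DESeq2 (0.0395).

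NDA2 (Cre19.g750547), a dehydrogenase of the thylakoid that feeds electrons into plastoquinone, stood at 88.6, 158 and 116 CPM in uvr8, against 72.0, 68.3 and 74.7 CPM in WT. The groups did not overlap, and the difference was 0.76 (SE 0.17, adjusted p = 0.0124). The call was lost without uvr8 library 2 (adjusted p = 0.120), without both libraries of number 2 (0.246) or of number 3 (0.0877), and in the fit of the 6 libraries alone (0.138). NDA2 was above the mean of co and hy5 by 0.73 (SE 0.15, adjusted p = 0.00473). With UV-B it differed by -0.06 (SE 0.17, adjusted p = 0.848). The change of the uvr8 effect with UV-B was -0.82 (SE 0.25, adjusted p = 0.0535), and passed with the block (0.0290). It was the 1 gene called of 9 for alternative electron flow.

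CRD1 (Cre07.g346050), a subunit of the chlorophyll-synthesis cyclase known for its response to copper and oxygen shortage, stood at 60.1, 60.4 and 69.8 CPM in uvr8, against 17.7, 22.0 and 22.3 CPM in WT. The strains were clearly separate, by 1.62 (SE 0.45, adjusted p = 0.0407). Its call was lost in all 9 leave-one-out fits, whose adjusted p ran from 0.0554 without uvr8 library 1 to 0.246 without both libraries of number 3. The single libraries gave adjusted p = 0.0970 without uvr8 library 2, 0.120 without uvr8 library 3, and 0.149, 0.0839 and 0.112 without WT library 1, 2 and 3. With both libraries of number 1 or 2 left out it was 0.154 and 0.174. In the fit with the replicate block it was 0.00338. With UV-B CRD1 differed by 1.56 (SE 0.45, adjusted p = 0.0167). That call was lost without uvr8 library 3 or WT library 1 with UV-B (0.0709 and 0.0597). CRD1 averaged 23.7 ± 2.04 CPM in co and 55.1 ± 5.53 CPM in hy5 (SD, n = 3 each), and uvr8 did not differ from their mean beyond the threshold (0.81, SE 0.37, adjusted p = 0.199). CTH1, the counterpart of CRD1, had 0.07 (adjusted p = 0.850), and CRD1 was the 1 gene called of 20 for tetrapyrrole synthesis. CHLM1, which lies beside DEG1C in the gene order, had 0.70 (SE 0.28, adjusted p = 0.158).

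CYCB1 (Cre08.g370401), a mitotic cyclin and the 1 gene called of 5 for the cell cycle, stood at 102, 260 and 156 CPM in uvr8, against 13.8, 43.4 and 41.8 CPM in WT. The strains did not overlap, and the difference was 2.39 (SE 0.55, adjusted p = 0.0125). The call was lost without uvr8 library 2 (adjusted p = 0.0792), without WT library 1 (0.0690), without both libraries of number 2 (0.0992) or of number 3 (0.0739), and in the fit of the 6 libraries alone (0.0621). CYCA1 and CDKB1, which act with it at cell division, had 1.52 (SE 0.59, adjusted p = 0.154) and 1.06 (SE 0.63, adjusted p = 0.398), and both passed in the block fit (0.000328 and 0.0101). In the other insertion strains CYCB1 was at 98.5, 192 and 123 CPM in co and at 100.2, 253 and 205 CPM in hy5. The uvr8 level differed from their mean by 0.11 (SE 0.45, adjusted p = 0.915). Under UV-B CYCB1 was at 86.8, 191 and 88.8 CPM in uvr8, against 6.25, 19.4 and 9.73 CPM in WT, which is a difference of 3.37 (SE 0.58, adjusted p = 0.000252). The change of the uvr8 effect with UV-B was 0.98 (SE 0.75, adjusted p = 0.550), and passed with the block (0.0374).

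Besides UVR8, 2 genes of the lists were called lower, where 1.99% of all genes were. SBP1 (Cre03.g185550), the sedoheptulose bisphosphatase of the Calvin cycle, stood at 341, 342 and 351 CPM in uvr8, against 646, 474 and 525 CPM in WT. The groups did not overlap, and the difference was -0.67 (SE 0.17, adjusted p = 0.0214). The call was lost without uvr8 library 1, 2 or 3 (adjusted p = 0.0501, 0.0846 and 0.0712), without WT library 1 (0.122), without both libraries of number 1, 2 or 3 (0.205, 0.0662 and 0.136) and in the fit of the 6 libraries alone (0.0995). SBP1 averaged 338 ± 46.9 CPM in co and 361 ± 35.2 CPM in hy5 (SD, n = 3 each), and uvr8 differed from their mean by -0.02 (SE 0.15, adjusted p = 0.951). Against the same WT libraries in the same fit, SBP1 was called lower in co and hy5 (-0.70 and -0.60, adjusted p = 0.0248 and 0.0469). With UV-B uvr8 differed from WT by -1.01 (SE 0.17, adjusted p = 0.000181). That call held without each single UV-B library (largest adjusted p = 0.00169). Without UV-B SBP1 was the 1 gene called of 13 of the Calvin cycle in uvr8 against WT. GAP3 (-0.40) and CP12 (-0.37) joined it only in the block fit (adjusted p = 0.0352 and 0.0208, against 0.125 and 0.155 without the block). FRE1 (Cre04.g227400), a ferrireductase of iron uptake and the 1 gene called of 5 for iron and copper, held 1, 4 and 1 counts in uvr8, against 14, 15 and 14 counts in WT. Its difference of -2.85 (SE 0.62, adjusted p = 0.00763) rests on few counts, and the call was lost without uvr8 library 3 (0.0527) and without both libraries of number 1 or 3 (0.0847 and 0.106). FRE1 was not called against the mean of co and hy5 (-1.37, SE 0.61, adjusted p = 0.183) or against WT with UV-B (-0.70, SE 0.58, adjusted p = 0.439).

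For most of the photosynthetic apparatus no gene was called, against 5.33% of all genes tested. None of the 11 genes of LHCII, 9 of LHCI, 8 of photosystem I, 5 of photosystem II, 6 of its assembly and repair, or 6 of carotenoid synthesis passed the test, and their medians lay between -0.17 and 0.15. In the block fit the repair protease gene FTSH2 passed at -0.40 (adjusted p = 0.0349, against 0.0981 without the block), as it did with DESeq2 (0.0491). Of 5 photoreceptors none passed, and channelrhodopsin ChR2 did so in the block fit at 0.83 (adjusted p = 0.00231, against 0.291 without the block). The 2 nitrogen genes and 4 tubulins gave no call either. In a list of 6 plastocyanin and low-oxygen genes, chosen after values had been seen, 0 were called and the median was 0.36.

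Genes of the CO2-concentrating mechanism, which supplies Rubisco with CO2, gave no call. All 15 log2 fold changes were below 0, with a median of -0.44 and a range of -1.37 to -0.03, against -0.02 for the median gene. LCI1, a membrane protein of the inorganic carbon supply, stood at 1766, 255 and 924 CPM in uvr8, against 3840, 1524 and 2267 CPM in WT. Both strains were highest in library 1 and lowest in library 2, and the groups overlapped through uvr8 library 1. Its difference was -1.37 (SE 0.65, adjusted p = 0.263). In the block fit 4 of the 15 were called lower, against 6.77% of all genes in that fit, namely LCI1 (-1.56, adjusted p = 0.00413), CCP1 (-1.31, adjusted p = 0.00470), EPYC1 (-0.69, adjusted p = 0.0387) and CAH1 (-0.46, adjusted p = 0.0432). Against the mean of co and hy5, 0 of the 15 were called in the main fit, where 7.69% of all genes were. LCI1, CCP1 and EPYC1 differed from that mean by -0.50, 0.05 and -0.18 (adjusted p = 0.639, 0.969 and 0.839). The 9 genes of acetate and glyoxylate metabolism, 0 of them called, also lay below 0, with a median of -0.38, and their summed levels ran from 877 to 3581 CPM among uvr8 libraries and from 1253 to 5686 CPM among WT libraries.

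**Figure D4:**
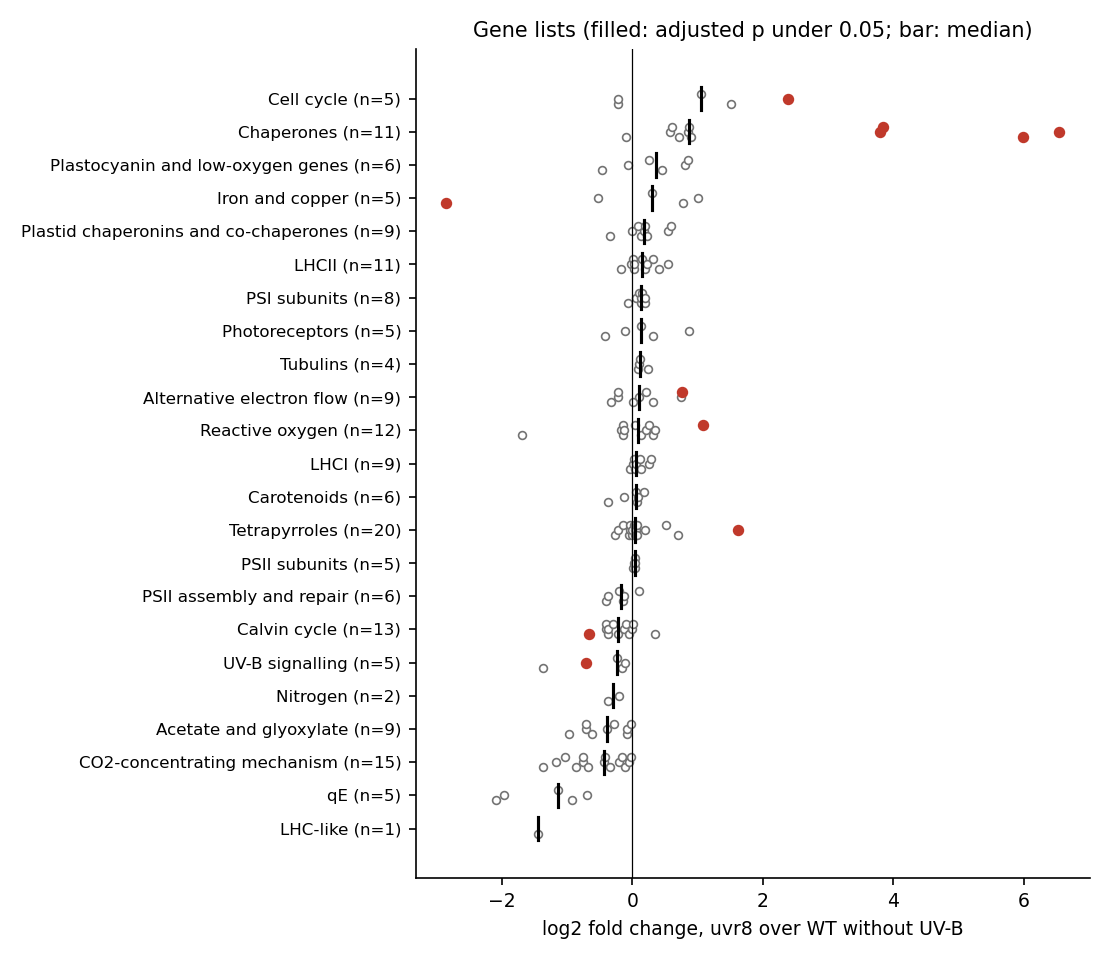
Log2 fold changes of uvr8 over WT without UV-B for the tested members of each gene list, 1 point per gene, filled in red where adjusted p was under 0.05, with a bar at the list's median. The chaperone list holds 4 called genes between 3.79 and 6.54, while qE, the CO2-concentrating mechanism and the acetate list lie below 0 with no called gene.

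The largest changes were mostly in genes without a name in the sources used here. Among called genes with a mean of at least 1 CPM and strains that did not overlap, the 10 largest rises had log2 fold changes of 5.24 to 6.98, and HSP22E and HSP22F were 2 of them. Cre12.g502600 stood at 57.9, 229 and 136 CPM in uvr8, against 1.18, 1.46 and 0.883 CPM in WT, which is a difference of 6.90 (SE 0.75, adjusted p = 5.02e-06). Cre07.g332250 held 12, 119 and 52 counts in uvr8, against 0, 0 and 1 in WT (adjusted p = 0.00315), and its call was lost without both libraries of number 2 (adjusted p = 0.0726). All uvr8 libraries were above all WT libraries, as the choice required. Library 2 was the highest of uvr8 for both genes, as for HSP22E. For 3 of the 10 rises the other insertion strains were high as well, with mean levels of 55.4 to 140 CPM in uvr8, 30.8 to 65.1 CPM in co, 54.9 to 121 CPM in hy5 and 1.40 to 3.51 CPM in WT. These 3 differed from the mean of co and hy5 by 0.30 to 0.66 (adjusted p = 0.376 to 0.612), and the other 7 by 3.60 to 7.61.

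The 10 largest falls had log2 fold changes of -8.06 to -3.24 and none carried a name. Against the mean of co and hy5, 8 of the 10 were called, and the 10 differed from it by -8.08 to 0.62. The gene at 0.62 averaged 0.333 CPM in uvr8, 0.303 CPM in co and 0.154 CPM in hy5, against 3.95 CPM in WT. Cre06.g295600 was nearly absent from uvr8, at 0.088, 0.120 and 0.0434 CPM, or 6 counts over 3 libraries. WT held 28.7, 19.8 and 23.7 CPM, or 1609 counts. Its difference was -8.06 (SE 0.34, adjusted p = 1.18e-11), and it held in all 9 leave-one-out fits (-8.53 to -7.77). It averaged 22.7 CPM in co and 25.9 CPM in hy5, and uvr8 had a log2 fold change of -8.08 over their mean (SE 0.33, adjusted p = 6.84e-12). Of its 10 nearest measured genes in the RefSeq v5.5 order 1 was called, against 5.33% of all genes tested. Their log2 fold changes ran from -2.56 to 0.65. Cre10.g452250 stood at 0.660, 0.920 and 0.954 CPM in uvr8, against 9.63, 83.8 and 31.6 CPM in WT. Every uvr8 library lay below every WT library, as the choice of genes required, and the WT libraries varied widely. The difference was -5.62 (SE 1.22, adjusted p = 0.00789), and the call was lost without uvr8 library 2 (0.0506) and without both libraries of number 2 or 3 (0.122 and 0.0755).

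The 6 libraries with UV-B are outside the contrast that chose these genes, and show how far the strain differences recur. They are not a fully independent check. They entered the same fit and its estimate of the spread, and carry the same replicate numbers. Of the 455 genes higher in uvr8 without UV-B, 413 (90.8%) had the same sign with UV-B, against 51.6% of all genes. Of them, 263 were called higher, which is 57.8% of the 455 and 20.8% of the 1264 genes called higher with UV-B (9.29% of genes tested). Of the 271 genes lower without UV-B, 249 (91.9%) had the same sign, against 48.4% of all genes. Here 150 were called lower, which is 55.4% of the 271 and 8.52% of the 1760 called lower with UV-B (12.9% of genes tested). Another 11 of the rises and 4 of the falls were called in the opposite direction. With single UV-B libraries left out, 213 to 280 of the 455 and 124 to 146 of the 271 were called the same way, and leaving out uvr8 library 3 gave 280 and 146. The comparison with UV-B called 3024 genes in all (22.2%), or 4702 (34.5%) in the block fit, and holds the UV-B response of WT as well as the strain difference. The uvr8 effect itself differed between the light conditions for 856 genes (6.29%), or 2003 (14.7%) in the block fit. Of the 10 largest rises 10 were called higher with UV-B, and of the 10 largest falls 9 were called lower. Cre06.g295600 was again nearly absent from uvr8, with a log2 fold change of -9.53 (SE 0.39, adjusted p = 5.53e-12).

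**Figure D5:**
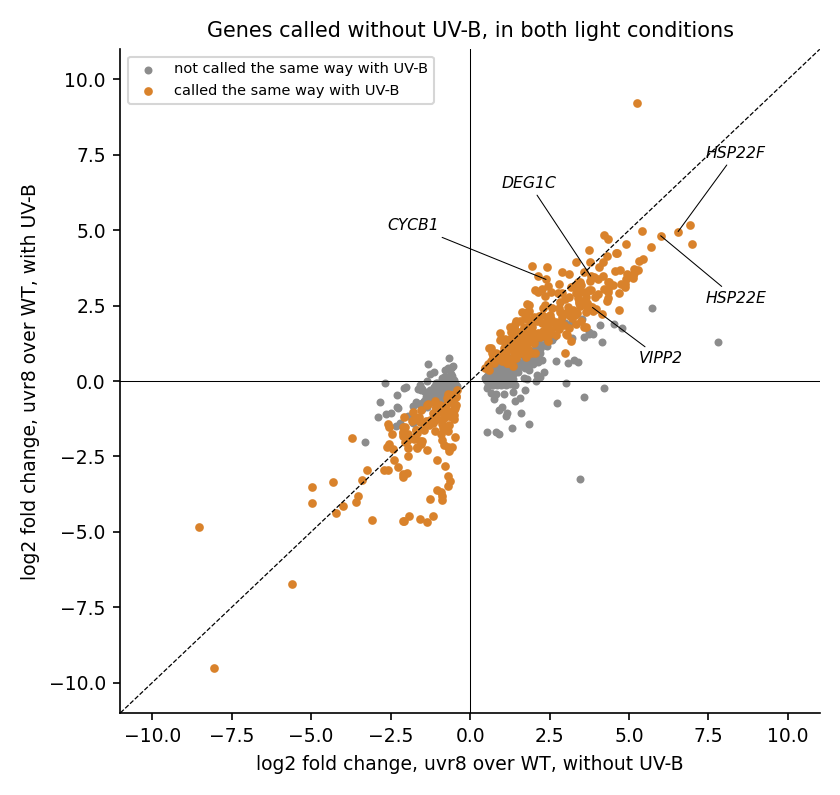
Log2 fold changes of uvr8 over WT for the 726 genes called without UV-B, in the 6 libraries without UV-B (horizontal axis) and in the 6 with UV-B (vertical axis), with a dashed line of equal change. Orange points were called the same way with UV-B (263 higher and 150 lower), and most points lie in the quadrants of equal sign.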

How the data were processed

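The counts deposited by the authors are whole numbers, not normalized, for 14621 genes with 1 column per library, all matched to samples. The submitters' processing notes list the tools edgeR 3.42.4, HTSeq 0.11.3, STAR 2.7.10b and bcl2fastq 2.20.0, with no role. Per the labels' protocols the kit selects poly(A) RNA and keeps strand. How counting used strand and reads with several matches is not given in the sources used here.

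Groups and replicate numbers came from the sample titles. Genes passing edgeR's filterByExpr (minimum count 10, minimum total 15), 13613 in all, were scaled by TMM (factors 0.848 to 0.998 in the 6 libraries) and fitted with 1 mean for each of 8 groups of 3 libraries by edgeR 4.0.16 in R 4.3.3. The SE is the log2 fold change divided by the square root of F. The 4 comparisons were uvr8 against WT without and with UV-B, the difference between these, and uvr8 against the mean of co and hy5. For the UV-B targets and SBP1, co and hy5 against WT without UV-B, from the same fit, are given too. DESeq2 1.42.0, other scaling, no filter, the 6 libraries alone, the replicate block and leave-one-out fits were alternatives. Leaving out single UV-B, co and hy5 libraries was added after seeing the data.

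Libraries of the same number in uvr8 and WT without UV-B deviated together from their group means (correlations 0.591, 0.657 and 0.128 for numbers 1, 2 and 3, all over 0.1). A fit with the number as a block is therefore given beside the main fit. The main fit, and every value not marked as from the block, leaves this pairing out. The labels give the numbers but not what they mark. The block was fitted over all 24 libraries. Whether libraries of the same number also deviated together under UV-B, or in co and hy5, was not tested.

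Simulated counts of 13613 genes for uvr8 against WT without UV-B, with 200 genes changed, gave 137 calls with 5 false ones. They recovered 42% of 2-fold and 90% of 4-fold changes. The changed genes stood at 1 CPM or more in WT, all else was set to the WT level, and libraries were drawn independently. The rates may therefore differ in the real libraries, which deviated together by replicate number. The precision is limited by 3 libraries a group.

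The comparison, gene lists and tests were chosen with earlier results of these data known. Gene names were assigned by locus from general knowledge of Chlamydomonas. The RefSeq table used (assembly v5.5) holds 0 symbols, so they could not be checked. Of 177 loci in 21 lists, 168 were in the table and 166 tested. ELI3, LHCB4, PSAG, PSBR, CHYB1, GLN2, LAO1, FEA2, DHAR1, NIT1 and NRT2.1 were not analysed here. A further 15 loci in 2 lists were written after values had been seen. Named genes are the signalling, qE and LHC-like genes, in every list the called members and the 4 of smallest p, and the 10 largest rises and falls at 1 CPM or more without overlap. Of unnamed identifiers, 2 rises and 2 falls are given. Other chaperones, CTH1 and CAH1 were named outside that rule after their values were seen. No sequence is shown, since no genome was used here.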

Additional observations from a re-analysis of the deposited data

Results flagged for a closer look

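For 19 named genes the uvr8 effect differed between the light conditions, by the test of that difference (edgeR, 856 genes called, 6.29% of those tested). The values are log2 differences of the uvr8 effect with UV-B minus that without. The 6 UV-B targets and signalling genes with the largest values were PSBS1 at -9.38, PSBS2 at -8.45, LHCSR1 at -7.51, LHL4 at -6.24, HY5 at -3.15 and SPA1 at -3.02. PSBS1, for example, had a log2 fold change of -10.52 with UV-B and -1.15 without it. COP1 had -2.88.

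Carotenoid genes followed, with PDS1 at -2.90, LCYB at -2.03 and PSY1 at -1.42. Genes of photosystem II assembly and repair were RBD1 at -2.78, FTSH2 at -2.66, FTSH1 at -2.63 and ALB3.2 at -1.83. GPX5, a glutathione peroxidase, had -2.53, PGR5 of cyclic electron flow -2.06 and the cryptochrome aCRY -2.01. PSBO and PSBY, subunits of photosystem II, went the other way, at 0.56 and 0.69. None of the 19 was called in uvr8 against WT without UV-B. The comparison with UV-B holds the UV-B response of WT, so these values say how that response differs, not how the strains differ beforehand.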

How the results depend on the processing

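The count of genes called in uvr8 against WT without UV-B was 726, and 745 and 709 with RLE scaling and without a low-count filter. DESeq2 called 1216, the replicate block 2173 and the fit of the 6 libraries alone 363. It ranged from 380 to 883 with 1 library left out, and was 494, 354 and 244 with both libraries of number 1, 2 or 3 left out. Rises made up 62.7% of the calls, and 71.1% to 78.3% in the 6-library fit and in fits without uvr8 library 2, without uvr8 library 3, or without both libraries of a number. Under UV-B the block called 4702 genes and leave-one-out fits 2108 to 3039. Against the mean of co and hy5, DESeq2 called 1606, the block 2683 and leave-one-out fits 271 to 1048, the lowest without uvr8 library 2. Rises were 66.6% of those calls, 53.2% with DESeq2 and 52.7% with the block. For the difference between light conditions the block called 2003 and leave-one-out fits 608 to 1117. The cause of these shifts was not tested. Fits with libraries left out, or of 6 libraries, hold fewer samples. For uvr8 against WT without UV-B their counts went down or up from 726. Examples are 380 without uvr8 library 2 and 883 without uvr8 library 1. Where 1 library is left out of a group, the remaining 2 are taken to vary like the other groups.

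For uvr8 against WT without UV-B, the replicate block added the calls given in the report and changed no other call of a named gene. Of the 107 named genes it added 8 calls under UV-B, 9 against the mean of co and hy5 and 13 for the difference between light conditions, and 0 were lost. No sign of a named gene turned under other scaling, no filter, DESeq2, the 6 libraries alone or the block. Signs turned only in leave-one-out fits and only in genes not called. Ranges over single left-out libraries were -1.51 to 0.12 for PSBS1, -0.27 to 0.086 for ZEP1, -0.42 to 0.037 for COP1, -1.56 to 0.050 for PCK1 and -0.23 to 0.037 for CO. They were -0.24 to 0.0056 for aCRY, -0.76 to 0.31 for NII1, -0.064 to 0.53 for GPX5, -0.0022 to 0.19 for TUA2, -0.0048 to 0.20 for PSAH and -0.00064 to 0.21 for LHCA5. For photosystem II they were -0.049 to 0.085 for PSBQ, -0.043 to 0.073 for PSBO, -0.059 to 0.12 for PSBY and -0.030 to 0.095 for PSBP1, and for TUB1 and ALB3.2 -0.0052 to 0.19 and -0.21 to 0.030. Without both libraries of number 1, PSBQ had -0.046, PSBO -0.022, PSBY -0.075, PSBP1 -0.034, NII1 0.41 and ALB3.2 0.044. Without both of number 2, aCRY had 0.027 and RBD1 0.015.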
